A study of Homo sapiens with 12 samples.

Results

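The 8 genes HMOX1, HMOX2, BLVRA, BLVRB, SLC48A1, FLVCR1, ABCB6 and PGRMC1 encode enzymes that break heme down and proteins that carry or bind it. They were taken from a table of 60710 Ensembl genes by matching each identifier to its symbol. Each of the 8 symbols matched 1 row, and all 8 passed the filter on low counts that left 16366 genes for testing. The 12 libraries came from SH-SY5Y, a cloned subline of the human neuroblastoma line SK-N-SH. Each group held 3 libraries. Control wells received 10 µL of DMSO in 2 mL of medium, and the other wells received the same volume of DMSO carrying HPPE, zinc protoporphyrin or tin protoporphyrin to a final 5 µM. All cells were lysed after 5 h, so every group carried the solvent and the same exposure time. The protoporphyrins share the porphyrin ring of heme and differ from each other in the metal it holds. The labels do not spell out HPPE.

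Heme oxygenase opens the heme ring and releases biliverdin, carbon monoxide and iron, and biliverdin reductase turns biliverdin into bilirubin. HMOX1 encodes the inducible oxygenase, whose transcription is held down by BACH1 and raised by NRF2 (NFE2L2), whereas HMOX2 encodes the constitutive oxygenase that predominates in neurons. Metalloporphyrins such as the zinc and tin compounds are known as competitive inhibitors of heme oxygenase activity, which RNA levels do not report.

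Total counts per library ran from 1337028 (zinc protoporphyrin replicate 1) to 9145399 (tin protoporphyrin replicate 2). Levels are given as CPM, which divides each count by its library total after TMM scaling and expresses it per 1e6. A count of 3, the floor used here, corresponded to 0.338 to 2.26 CPM, and every member lay above it in every library; the smallest value was 4 counts, for BLVRB in zinc protoporphyrin replicate 1. Of 10 markers of noradrenergic neuroblastoma, 9 were above the floor in every library, while TH was at or under 3 counts throughout. All markers of leukocytes, macrophages, hepatocytes and red cell precursors were at or under 3 counts in every library. The 4 fibroblast markers were all detected, with summed levels of 67.6 to 78.5 CPM in the control, 76.7 to 79.1 CPM with HPPE, 82.8 to 85.8 CPM with zinc protoporphyrin and 88.1 to 90.8 CPM with tin protoporphyrin. COL1A2 was called higher than the control with zinc (1.945-fold, edgeR adjusted p 0.0208) and tin protoporphyrin (2.03-fold, 0.00658). DCN was too (1.60-fold, 0.0388, and 1.66-fold, 0.0159), while COL1A1 and LUM were not called. Of all genes 2.25% and 2.28% were called in these comparisons. Among 3 epithelial markers, KRT18 alone was above the floor in every library. The part of these markers in the results was not tested. In bulk RNA, fewer cells of a type and less RNA per cell cannot be told apart. Nothing in the labels says that replicates came from separate cultures, so the p-values measure the spread between these libraries, which may be technical.

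**Figure D1:**
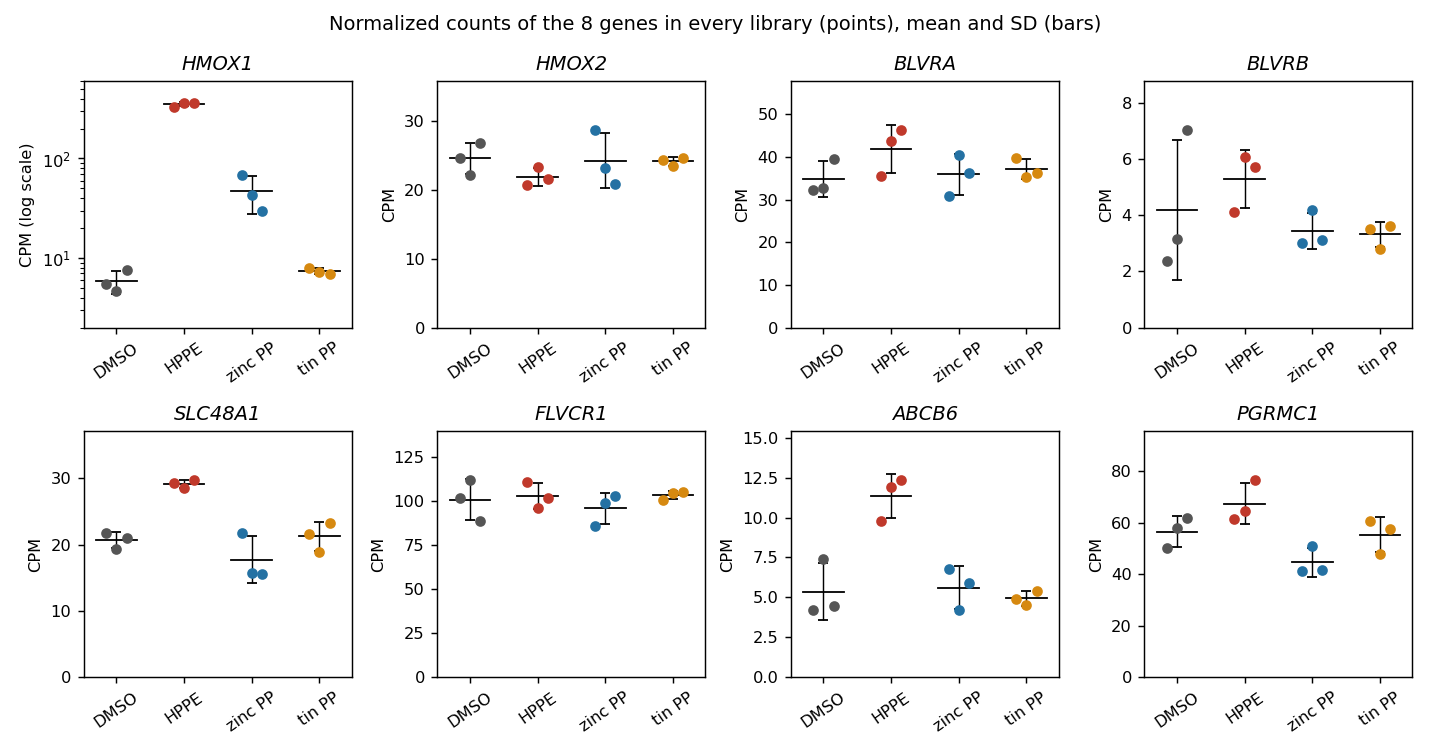
Normalized counts (CPM, vertical axis; log scale for HMOX1 only) of the 8 genes in the DMSO, HPPE, zinc protoporphyrin (zinc PP) and tin protoporphyrin (tin PP) groups; points are libraries in replicate order, bars the mean and SD of 3. HMOX1 spans 4.62 to 364.5 CPM, while HMOX2 stays between 20.6 and 28.6 CPM.

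Across the 4 groups together, 4 of the 8 genes differed. These were HMOX1 (adjusted p 1.53e-12), ABCB6 (0.00402), SLC48A1 (0.00445) and PGRMC1 (0.0482), against 7.18% of all genes tested. BLVRB (0.224), BLVRA (0.332), HMOX2 (0.737) and FLVCR1 (0.854) did not pass. With HPPE, 3 of the 8 were called higher than the control, HMOX1, ABCB6 and SLC48A1, and 0 lower. In that comparison 4.04% of all genes were called, 2.57% higher and 1.47% lower. The same 3 members were those whose libraries did not overlap the control, as for 21.4% of all genes. With zinc protoporphyrin 1 member was called, HMOX1, and it was the 1 whose libraries did not overlap the control. There 2.25% of all genes were called (1.84% higher, 0.415% lower) and 22% did not overlap. With tin protoporphyrin edgeR called 0 of the 8, against a background of 2.28% (1.9% higher, 0.379% lower), and DESeq2 called 0 as well. All 8 overlapped the control, while 17.9% of all genes did not. An unadjusted edgeR p under 0.05 was found for 6 members with HPPE, 3 with zinc and 0 with tin protoporphyrin. The shares of all genes were 17.7%, 18.6% and 14.7%. The 3 comparisons use the same control libraries.

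**Figure D2:**
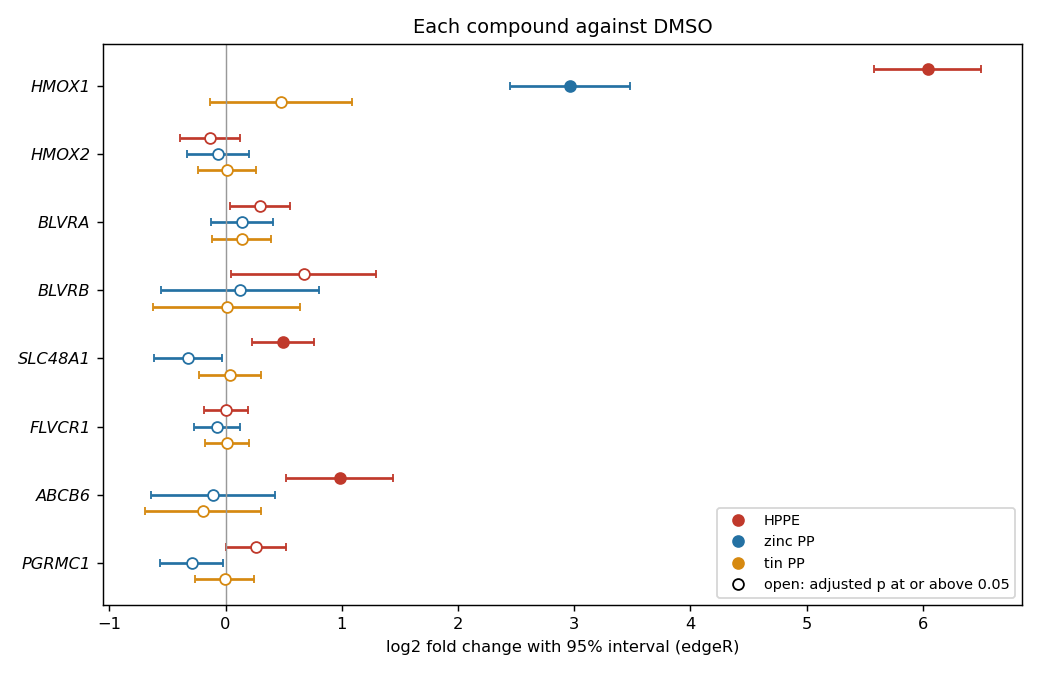
Log2 fold change against DMSO (horizontal axis, edgeR) with its 95% interval for each gene and compound; filled points have an adjusted p under 0.05. HMOX1 stands at 6.04 with HPPE and 2.97 with zinc protoporphyrin, and ABCB6 at 0.98 and SLC48A1 at 0.50 with HPPE are the other filled points.

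HMOX1 (ENSG00000100292.18; GRCh38 chromosome 22, 35381096 to 35394207) was read at 5.42, 4.62 and 7.66 CPM in the 3 control libraries, from 41, 35 and 12 counts. With HPPE it reached 331.5, 364.5 and 358.4 CPM, from 2651, 3129 and 1132 counts. The HPPE libraries lay close together and far above every other library. The fold over the control was 65.9, with a 95% interval of 48.0 to 90.4 (adjusted p 2.62e-11). It had the smallest p of all 16366 genes in this comparison and the 3rd largest log2 fold change.

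With zinc protoporphyrin HMOX1 was read at 67.8, 43.3 and 29.8 CPM in replicates 1, 2 and 3. All 3 libraries were above every control and tin protoporphyrin library. They also differed from one another beyond counting error, with exact Poisson 95% intervals of 54.5 to 83.3, 38.8 to 48.2 and 26.2 to 33.8 CPM. Replicate 1 was the shallowest library of the series, with 90 HMOX1 counts. The fold over the control was 7.81, with an interval of 5.46 to 11.2 (adjusted p 4.05e-06), and the log2 fold change was 2.77 to 3.25 over 22 alternative fits.

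With tin protoporphyrin HMOX1 was read at 7.970, 7.1996 and 6.958 CPM, and these libraries overlapped the controls. The fold was 1.39 with an interval of 0.909 to 2.12 (adjusted p 0.487), so a rise of more than 2.12-fold lay outside the interval. The groups were thus ordered HPPE, zinc protoporphyrin, tin protoporphyrin and DMSO, and the last 2 did not differ beyond their spread. Zinc protoporphyrin stood 5.62-fold above tin protoporphyrin, which differs in the metal, at the same dose and time (interval 4.14 to 7.63, adjusted p 2.04e-05). HMOX1 was the 1 gene of 16366 called between those compounds (0.00611%, higher with zinc, and 0% lower). That count rests on 1 library and on the filter: without tin protoporphyrin replicate 2 there were 1453 calls (8.59%), and with no filter on low counts 270 (0.7%).

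HMOX2 (ENSG00000103415.12; chromosome 16, 4474736 to 4510347), the constitutive oxygenase, was read at 24.6, 22.2 and 26.8 CPM in the control and at 20.6, 23.3 and 21.5 CPM with HPPE. It was read at 28.6, 23.2 and 20.8 CPM with zinc protoporphyrin and at 24.4, 23.4 and 24.6 CPM with tin protoporphyrin. Each treated group overlapped the control. Against the control the folds were 0.913 with HPPE (interval 0.762 to 1.09), 0.958 with zinc protoporphyrin (0.795 to 1.153) and 1.01 with tin protoporphyrin (0.846 to 1.197), with adjusted p from 0.612 to 0.989. These intervals leave out a change of 1.5-fold in either direction. In GENCODE release 29, 6.01% of the exon bases of HMOX2 overlap NMRAL1 on the other strand, which was not called in any comparison. The strand setting of the authors' counting is not given in the sources used here, so reads from that stretch cannot be told apart. For SLC48A1 the same holds for 0.65% of its exon bases, which overlap HDAC7, and 1.69%, which overlap RAPGEF3.

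Between genes, levels were compared as CPM per kilobase of the longest transcript in the GENCODE release 29 basic set. In the control, HMOX2 was at 11.4 ± 1.08 (SD, n = 3) and HMOX1 at 3.24 ± 0.86 CPM per kilobase. HMOX1 made up 21.8 ± 2.94% of the oxygenase transcripts in the control, with libraries from 19.7 to 25.2%. The share lay between 94.9 and 95.1% with HPPE, and was 68.4 ± 5.41% with zinc protoporphyrin (62.8 to 73.6%) and 26.5 ± 1.42% with tin protoporphyrin (25.0 to 27.8%). The HPPE and zinc protoporphyrin libraries did not overlap each other, the control or tin protoporphyrin, and the control and tin protoporphyrin libraries overlapped. In an exact two-sided permutation test, 5 of the 6 pairs of groups reached 0.1, the smallest p that 3 against 3 allows, with an adjusted value of 0.12 over the 6 pairs. Tin protoporphyrin against the control gave 0.2.

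The sum of both oxygenases was 14.7 ± 1.92 CPM per kilobase in the control and 15.3 ± 0.44 with tin protoporphyrin. It was 37.0 ± 12.4 with zinc protoporphyrin and 203.1 ± 10.2 with HPPE. BLVRA, which encodes the main biliverdin reductase of adult tissue and acts on the oxygenase product, was at 29.99 ± 3.55 CPM per kilobase in the control, above the oxygenase sum in every control library. With HPPE it was at 36.0 ± 4.82, below the sum in every library. With zinc protoporphyrin the ranges overlapped, 26.6 to 34.9 for BLVRA and 26.1 to 50.5 for the sum. Among the 8 genes HMOX1 ranked 7 by level per kilobase in the control, 6 with tin protoporphyrin, 2 with zinc protoporphyrin and 1 with HPPE.

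**Figure D3:**
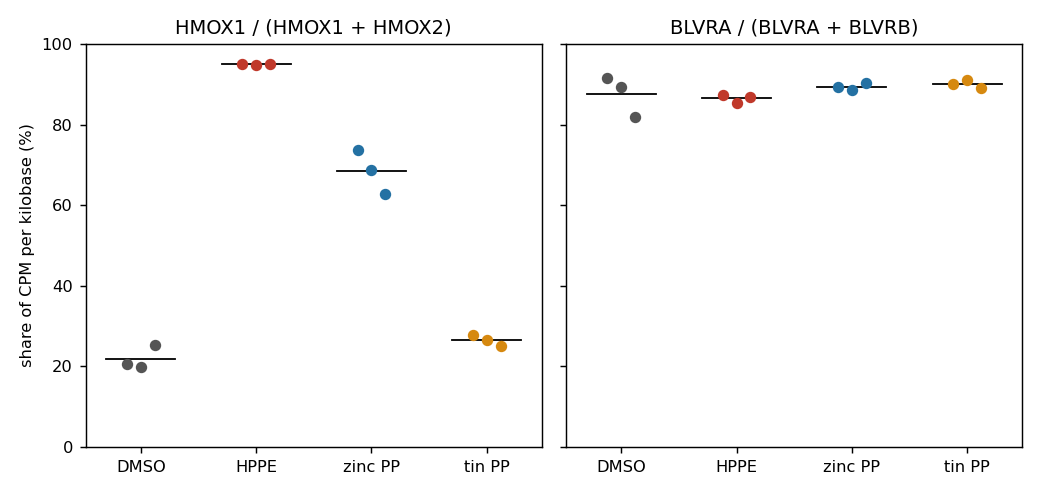
Share of HMOX1 in the summed HMOX1 and HMOX2 level (left) and of BLVRA in the summed BLVRA and BLVRB level (right), in percent of CPM per kilobase; points are libraries, lines the mean of 3. The HMOX1 share runs from 19.7% in a control library to 95.1% with HPPE, while the BLVRA share stays between 82.0 and 91.6%.

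BLVRA (ENSG00000106605.11; chromosome 7, 43758122 to 43807342) was read at 32.1, 32.7 and 39.6 CPM in the control and at 35.5, 43.7 and 46.2 CPM with HPPE. It was read at 30.9, 40.6 and 36.2 CPM with zinc protoporphyrin and at 39.7, 35.3 and 36.3 CPM with tin protoporphyrin. All 4 groups overlapped. With HPPE the fold was 1.23 (interval 1.02 to 1.47) and its adjusted p 0.217. With zinc and tin protoporphyrin the fold was 1.10 each, with intervals of 0.915 to 1.32 and 0.924 to 1.31.

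BLVRB (ENSG00000090013.11; chromosome 19, 40447768 to 40465745), a reductase of flavins and of a fetal form of biliverdin, was the most thinly counted member. Control libraries read 2.38, 3.17 and 7.02 CPM from 18, 24 and 11 counts. The highest of these, replicate 3, came from a library of 1514595 counts in all and exceeded every treated library. HPPE libraries read 4.13, 6.06 and 5.70 CPM, zinc protoporphyrin libraries 3.01, 4.19 and 3.13 CPM, and tin protoporphyrin libraries 3.52, 2.81 and 3.62 CPM. The fold with HPPE was 1.59 (interval 1.04 to 2.46, adjusted p 0.241), while the mean was 5.29 CPM against 4.19 CPM in the control. With zinc and tin protoporphyrin the folds were 1.09 (0.682 to 1.75) and 1.01 (0.651 to 1.56). Their means, 3.44 and 3.32 CPM, nevertheless lay below the control mean. BLVRA made up 87.6 ± 5.02% of the reductase transcripts per kilobase in the control, 86.5 ± 1.06% with HPPE, 89.4 ± 0.85% with zinc protoporphyrin and 90.1 ± 1.005% with tin protoporphyrin. The HPPE libraries (85.4 to 87.4%) lay below all those with zinc (88.7 to 90.3%) and tin protoporphyrin (89.0 to 91.0%), each at an exact permutation p of 0.1, the smallest possible, and 0.3 adjusted over 6 pairs. The other 4 pairs overlapped, with adjusted exact permutation p-values of 0.9.

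ABCB6 (ENSG00000115657.14; chromosome 2, 219209772 to 219218958), an ATP-driven transporter of porphyrins, was read at 4.23, 7.39 and 4.47 CPM in the control and at 9.75, 11.9 and 12.3 CPM with HPPE. Every HPPE library was above every other library of the series. The fold over the control was 1.98 (interval 1.43 to 2.72, adjusted p 0.0151). The call was lost in 3 of 22 alternative fits, without DMSO replicate 1 (log2 fold change 0.73, adjusted p 0.178), HPPE replicate 2 (adjusted p 0.0968) or HPPE replicate 3 (0.0545).

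Zinc protoporphyrin libraries read ABCB6 at 6.78, 4.19 and 5.89 CPM and tin protoporphyrin libraries at 4.92, 4.4997 and 5.43 CPM, within the range of the control except for the lowest, 4.19 CPM. The zinc protoporphyrin mean, 5.62 CPM, lay above the control mean of 5.36 CPM, unlike its fold. Both groups gave folds near the control, 0.929 (interval 0.643 to 1.34) with zinc and 0.873 (0.618 to 1.23) with tin protoporphyrin. HPPE exceeded them by 2.13-fold (1.54 to 2.94, adjusted p 0.00904) and 2.26-fold (1.68 to 3.05, adjusted p 0.00485). Both calls were lost without HPPE replicate 2 (adjusted p 0.0634 and 0.0578). In GENCODE release 29, 54.7% of the exon bases of ABCB6 also belong to a gene model on the same strand, AC068946.2, which held 0 to 6 counts per library. Reads in the shared part may have been left out or divided in the authors' counting, so the ABCB6 level is uncertain.

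Windows of 250 bases before an annotated start were read for 7 of the 8 genes (GRCh38.p14), to show what they hold in members that rose with HPPE. For SLC48A1 and BLVRA the window lies inside the gene span given here, not before its first base. The same holds for a second window of HMOX2. HMOX1 had no window in the table used. On both strands, 5 motifs were searched. They were the antioxidant response element core TGACNNNGC (10.9% of 35116 windows of this length hold it), the E-box CACGTG (6.34%), the metal response element core TGCNCNC (49.1%), the heat shock element core GAANNTTC (5.78%) and the CCAAT box (32%). ABCB6 was the 1 member of the 7 with a TGACNNNGC match, 152 to 144 bases before the start, and it overlaps an E-box at 156 to 151. The stretch from 162 to 138 bases before the start is shown because it carries both, in capitals; it also lies in an exon of AC068946.2. The SLC48A1 window, before a start inside the gene, held none of the 5 motifs. It is shown for contrast without its last 30 bases, which an annotated exon covers.
ABCB6 (chr2:219219096-219219120, minus strand): cctgggCACGTGACCAAGCcggctc
SLC48A1 (chr12:47772988-47773207, plus strand): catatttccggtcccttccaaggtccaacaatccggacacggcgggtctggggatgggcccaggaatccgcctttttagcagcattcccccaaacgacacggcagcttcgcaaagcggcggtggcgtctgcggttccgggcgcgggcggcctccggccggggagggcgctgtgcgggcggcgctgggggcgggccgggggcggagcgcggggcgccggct
Both genes were higher with HPPE, and they differ in these letters. A match describes the sequence and is no evidence that a factor binds there, and a window without a match says only that these letters are not in it. Among the members that did not differ across groups, HMOX2 held an E-box 28 to 23 bases before its first start. The metal response element core was found for HMOX2, BLVRA, BLVRB and PGRMC1, and the CCAAT box for HMOX2, BLVRA, FLVCR1 and ABCB6. No member window held the heat shock element core.

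SLC48A1 (ENSG00000211584.14; chromosome 12, 47753934 to 47782751), known as HRG1, moves heme out of endosomes and lysosomes into the cytosol. It was read at 21.7, 19.4 and 21.1 CPM in the control and at 29.3, 28.5 and 29.8 CPM with HPPE. The HPPE libraries were the 3 highest of the series. The fold was 1.41 (interval 1.17 to 1.70, adjusted p 0.032). The size held over the alternatives, with log2 fold changes of 0.44 to 0.55, but 8 of 22 fits lost the call, among them DESeq2 (adjusted p 0.064), HPPE replicates 2 and 3 summed (0.0821), and the removal of DMSO replicate 1 (0.1), DMSO replicate 2 (0.209) or any 1 HPPE replicate (0.0899 to 0.116).

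With zinc protoporphyrin SLC48A1 was read at 21.8, 15.7 and 15.6 CPM, 1 library above all controls and 2 below all of them. The high library was replicate 1, the shallowest. The fold was 0.800 (interval 0.653 to 0.979), with an unadjusted p of 0.032 and an adjusted p of 0.223. Tin protoporphyrin libraries read 21.7, 18.9 and 23.2 CPM, with a fold of 1.03 (0.856 to 1.24). HPPE exceeded zinc protoporphyrin by 1.76-fold (1.46 to 2.13, adjusted p 0.00168), a call that all 22 alternatives kept. The difference from tin protoporphyrin, 1.37-fold (1.16 to 1.63), had an adjusted p of 0.0694.

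FLVCR1 (ENSG00000162769.13; chromosome 1, 212858275 to 212899363), first described as an exporter of heme at the plasma membrane and since also as a choline transporter, had the highest count of the carriers. It was read at 101.9, 112.1 and 88.7 CPM in the control and at 110.8, 96.2 and 102.0 CPM with HPPE. Zinc protoporphyrin libraries read 85.8, 99.1 and 102.8 CPM and tin protoporphyrin libraries 100.7, 104.7 and 105.2 CPM. All 4 groups overlapped. Folds against the control were 1.004 with HPPE (interval 0.879 to 1.147), 0.952 with zinc (0.831 to 1.09) and 1.009 with tin protoporphyrin (0.885 to 1.150), the tightest intervals of any member. Per kilobase it stood at 17.0 ± 1.97 in the control, above SLC48A1 at 6.88 ± 0.39 and ABCB6 at 1.76 ± 0.58.

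PGRMC1 (ENSG00000101856.10; chromosome X, 119236285 to 119244466) encodes a membrane protein that binds heme and partners with cytochromes P450. It was read at 50.1, 57.8 and 61.9 CPM in the control and at 61.4, 64.4 and 76.6 CPM with HPPE. Zinc protoporphyrin libraries read 41.4, 51.0 and 41.5 CPM and tin protoporphyrin libraries 60.7, 47.7 and 57.7 CPM. The zinc protoporphyrin libraries were lowest on average and those with HPPE highest, and each overlapped the control. Against the control the folds were 1.20 with HPPE (interval 1.005 to 1.43, adjusted p 0.27) and 0.817 with zinc protoporphyrin (0.678 to 0.985, adjusted p 0.232), so neither passed. HPPE exceeded zinc protoporphyrin by 1.47-fold (1.23 to 1.76, adjusted p 0.0139). That call was lost without HPPE replicate 2 (adjusted p 0.0582), HPPE replicate 3 (0.0632) or zinc protoporphyrin replicate 3 (0.118).

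At the same dose and time, HPPE exceeded zinc protoporphyrin in 4 of the 8 genes, HMOX1 (8.43-fold, interval 6.61 to 10.8), ABCB6, SLC48A1 and PGRMC1. In that comparison 12.7% of all genes were called, 6.44% higher and 6.26% lower with HPPE. That share moved with single libraries, to 1.03% without zinc protoporphyrin replicate 3, 1.1% without HPPE replicate 2, 2.02% without HPPE replicate 3 and 20.8% without tin protoporphyrin replicate 2. The same 4 members did not overlap between the groups, as for 36.7% of all genes. Across 16185 genes the log2 fold changes of HPPE against zinc protoporphyrin had a Spearman correlation of -0.253 with transcript length. It was -0.252 for HPPE, 0.104 for zinc and -0.18 for tin protoporphyrin against the control, -0.126 for HPPE against tin and 0.265 for zinc against tin protoporphyrin; genes are not independent replicates. HMOX1, ABCB6, SLC48A1 and PGRMC1 have longest transcripts of 1822, 3045, 3010 and 1911 nucleotides, against a median of 3048. The part of length in these differences was not tested. HPPE exceeded tin protoporphyrin in HMOX1 (47.4-fold, interval 35.9 to 62.6, adjusted p 1.17e-11) and ABCB6, 2 of the 8 against a background of 1.45% (0.745% higher, 0.709% lower). Libraries of these groups did not overlap for 6 of the 8 genes, against 19.9% of all genes. These were HMOX1, ABCB6, SLC48A1, PGRMC1 and BLVRB, all higher with HPPE, and HMOX2, lower with HPPE at an adjusted p of 0.639. Between zinc and tin protoporphyrin, 1 of 8 differed, which was also the 1 without overlap (12.9% of all genes). For the other 7 the intervals of the zinc to tin ratio were 0.799 to 1.13 for HMOX2, 0.838 to 1.19 for BLVRA, 0.704 to 1.67 for BLVRB and 0.643 to 0.941 for SLC48A1. They were 0.827 to 1.08 for FLVCR1, 0.749 to 1.51 for ABCB6 and 0.687 to 0.980 for PGRMC1. SLC48A1 and PGRMC1 were lower with zinc at unadjusted p-values of 0.0126 and 0.0315 (adjusted 0.353 and 0.355), and without tin protoporphyrin replicate 2 both passed (0.0449 and 0.0475), as did 8.59% of all genes in that fit.

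**Figure D4:**
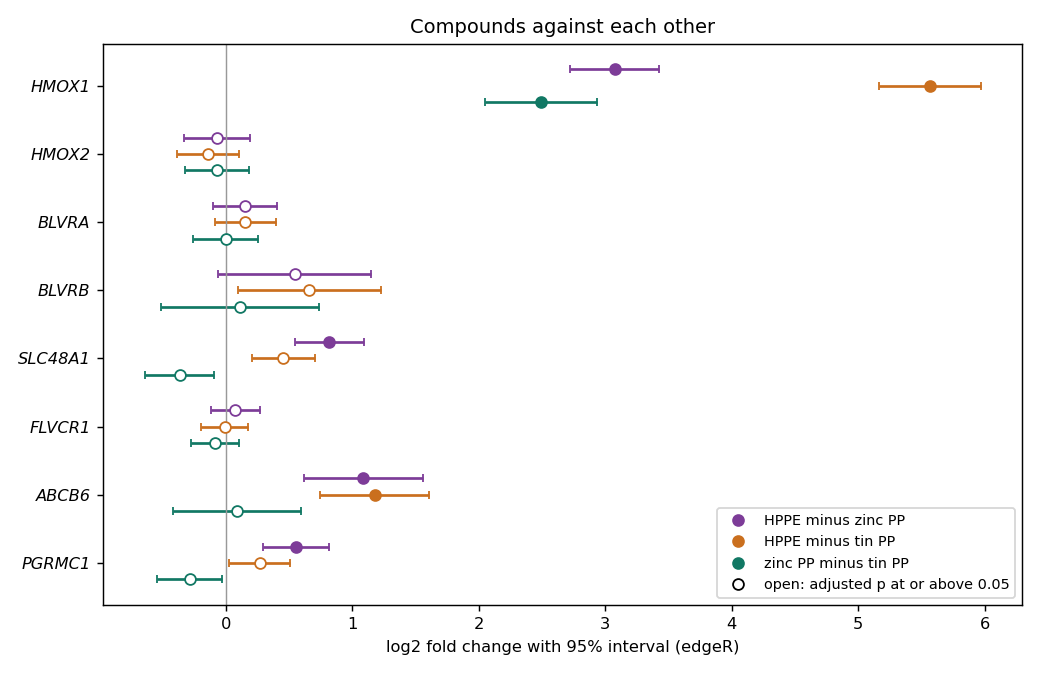
Log2 fold change between compounds (horizontal axis, edgeR) with its 95% interval for each gene; filled points have an adjusted p under 0.05. Zinc against tin protoporphyrin is filled for HMOX1 only, at 2.49, while HPPE against zinc protoporphyrin is filled for HMOX1, SLC48A1, ABCB6 and PGRMC1.

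Libraries within groups also varied along a shared axis, the first principal component of their deviations from the group means, which held 52.7% of that variance. With its score as a term, 3 members were called with HPPE (against 16.3% of all genes), 3 with zinc protoporphyrin (25.4%) and 0 with tin protoporphyrin (13.5%) relative to the control. Between compounds it called 4 members for HPPE against zinc (34.8%), 5 for HPPE against tin (15.8%) and 3 for zinc against tin protoporphyrin (14.4%). The axis was taken from the same counts that were tested, and with it the common coefficient of biological variation fell from 0.0913 to 0.0372. These p-values are therefore too small and the numbers of calls uncertain, and no call is drawn from them.

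Other genes of heme handling were taken from a list of 23, of which 18 passed the filter. UGT1A1, which conjugates bilirubin, and the scavenger receptor CD163 had 0 counts in every library. The exporter ABCG2, the carrier FLVCR2 and the hemoglobin scavenger HP did not pass either. With HPPE, 2 of the 18 were called higher and 0 lower, against 2.57% and 1.47% of all genes. The median log2 fold change was 0.07, against 0.02 over all genes. POR, the reductase that hands electrons to heme oxygenase, read 61.8, 63.5 and 83.0 CPM in the control and 80.5, 91.6 and 95.9 CPM with HPPE. 1 control library lay within the HPPE range, and the fold was 1.33 (interval 1.13 to 1.56, adjusted p 0.0428, lost in 13 of 22 alternatives). ABCC1, an exporter of glutathione and bilirubin conjugates, read 171.8, 171.3 and 151.9 CPM in the control and 206.2, 202.4 and 201.7 CPM with HPPE. Its groups did not overlap and its fold was 1.22 (1.10 to 1.36, adjusted p 0.0293, lost in 11 of 22).

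With zinc protoporphyrin edgeR and DESeq2 called 0 of the 18, while edgeR called 2.25% of all genes. An unadjusted p under 0.05 was found for 4 (and for 18.6% of all genes). Of the 18 log2 fold changes, 4 were above 0 (median -0.145, against -0.0038 over all genes). With tin protoporphyrin both tools called 0 (edgeR called 2.28% of all genes), and 1 had an unadjusted p under 0.05, against 14.7% of all genes. HPPE against zinc protoporphyrin called 3 higher and 1 lower, against 6.44% and 6.26% of all genes. POR stood 1.61-fold higher (adjusted p 0.00198) and PGRMC2, a relative of PGRMC1 that carries heme to the nucleus, 1.43-fold higher (0.0141, lost in 4 of 22 alternatives). The other 2, named after their values were seen, were the transporter ABCC5 (1.29-fold, adjusted p 0.0284, lost in 5 of 22) and the folate and heme carrier SLC46A1 (0.667-fold, adjusted p 0.0446, lost in 10 of 22, DESeq2 among them at 0.0617). HPPE against tin protoporphyrin and zinc against tin protoporphyrin gave 0 calls by both tools, while edgeR called 1.45% and 0.00611% of all genes. These comparisons had 5 and 4 listed genes at an unadjusted p under 0.05, against 13.1% and 13.3% of all genes.

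**Figure D5:**
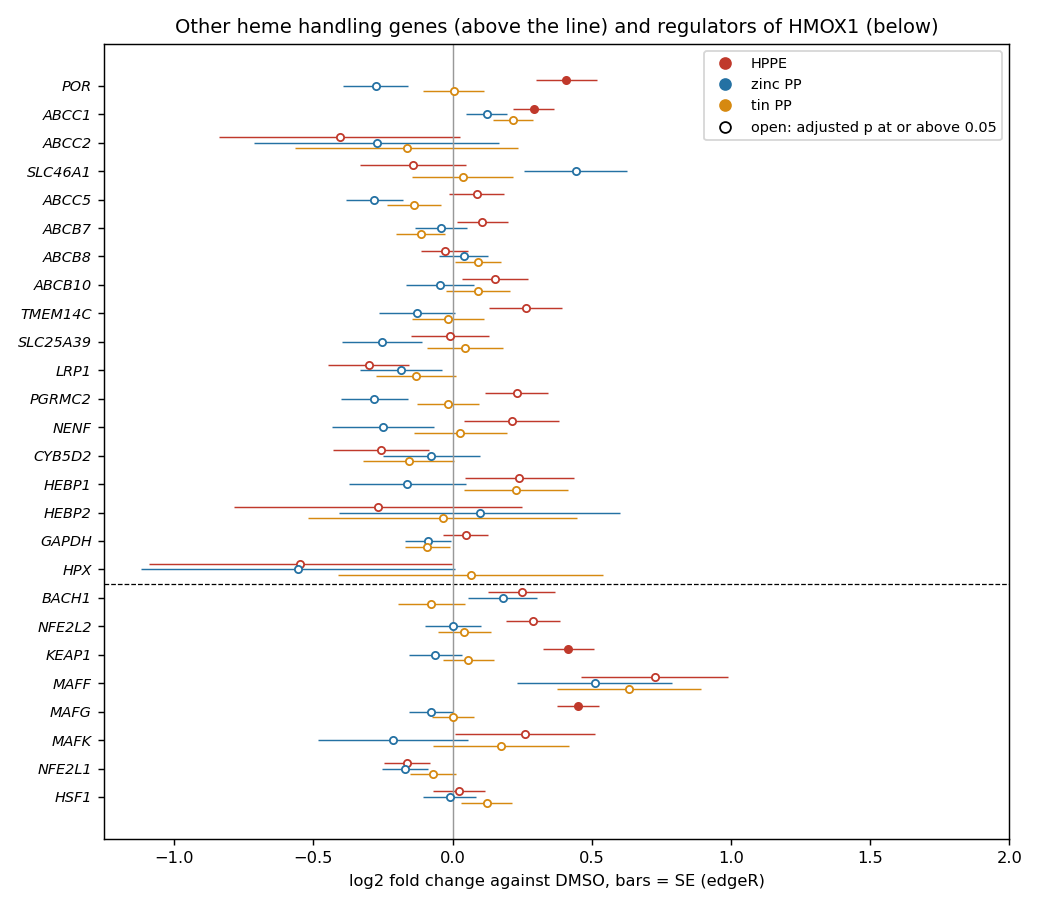
Log2 fold change against DMSO (horizontal axis, edgeR; bars are SE) for 18 other heme handling genes above the dashed line and 8 regulators of HMOX1 below it; filled points have an adjusted p under 0.05. The filled points are all HPPE, for POR at 0.41, ABCC1 at 0.29, KEAP1 at 0.42 and MAFG at 0.45.

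Of 8 regulators of HMOX1, all tested, 2 were called with HPPE and 0 with either protoporphyrin, by edgeR and by DESeq2 alike. Over all genes edgeR called 4.04% with HPPE, 2.25% with zinc and 2.28% with tin protoporphyrin. Against the control, 4 (HPPE), 0 (zinc) and 1 (tin) of the 8 had an unadjusted p under 0.05. The shares of all genes were 17.7%, 18.6% and 14.7%. The 1 with tin protoporphyrin was MAFF (1.55-fold, interval 1.06 to 2.26, edgeR adjusted p 0.26). With HPPE the MAFF fold was 1.655 (1.12 to 2.44, adjusted p 0.149), also uncalled, and its control libraries held 11 to 31 counts. MAFG, a small MAF partner of both NRF2 and BACH1, read 122.2, 123.9 and 138.5 CPM in the control and 167.8, 174.9 and 178.3 CPM with HPPE. These groups did not overlap, the fold was 1.37 (interval 1.22 to 1.53, adjusted p 0.00185), and all 22 alternatives kept the call. MAFG was also higher with HPPE than with zinc (1.44-fold, adjusted p 0.000897) and tin protoporphyrin (1.36-fold, adjusted p 0.00297). KEAP1, which marks NRF2 for degradation, read 73.4, 68.0 and 77.2 CPM in the control and 89.3, 96.9 and 103.8 CPM with HPPE, and 5 of 22 alternatives lost its call (adjusted p 0.0145). KEAP1 was also higher with HPPE than with zinc protoporphyrin (1.39-fold, edgeR adjusted p 0.0074, lost in 1 of 22). The repressor BACH1 itself had log2 fold changes of 0.25 ± 0.12 (SE) with HPPE, 0.18 ± 0.12 with zinc and -0.08 ± 0.12 with tin protoporphyrin, none called. NFE2L2 had folds of 1.22 with HPPE (interval 1.06 to 1.41, edgeR adjusted p 0.109), 1.001 with zinc and 1.03 with tin protoporphyrin, none called.

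Over the 12 libraries, the genes whose log2 CPM followed HMOX1 most closely among 16303 compared were P2RY6 (Pearson r 0.968), GCLM (0.964), HTRA3 (0.958), SLC7A11 (0.95) and OSGIN1 (0.946). These values describe 12 libraries in 4 groups and hold the differences between groups as well as those within them. HTRA3 reached the required 1 CPM in the HPPE group only (2.90 CPM), so its r rests on that group. It averaged 0, 0.335 and 0.0391 CPM in the control, zinc and tin protoporphyrin groups. Of the other members ABCB6 followed HMOX1 most closely (0.81), then SLC48A1 (0.592), while HMOX2 was at -0.352. ABCB6 was most like LBR (0.953), TYW3 (0.93) and TRIM16L (0.925). SLC48A1 was most like PSMD11 (0.929), TUSC3 (0.918) and UBAP2L (0.91), and PGRMC1 most like NCBP2 (0.964), TPRKB (0.963) and CHMP5 (0.96). GCLM, the regulatory subunit of glutathione synthesis, averaged 26.3, 157.4, 42.4 and 27.9 CPM in the control, HPPE, zinc and tin protoporphyrin groups. That is the order of HMOX1, which its choice by correlation with HMOX1 largely fixed.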

How the data were processed

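The authors deposited whole-number read counts per Ensembl gene for 12 libraries, not normalized. Per the submitters' processing notes, fastp 0.21.1, STAR 2.7.7a, featureCounts and GRCh38 were used; annotation and strand setting are not given in the sources used here. Of 60710 identifiers 60481 matched a symbol, and no value column fell outside the 12 samples.

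Counts were tested with edgeR 4.0.16 in R 4.3.3 (filterByExpr, TMM, estimateDisp and glmQLFit with robust estimation, glmQLFTest, two-sided), with 1 model of 4 group means over 16366 genes holding 99.63% of counts. Adjusted p-values are Benjamini-Hochberg over all of these, called under 0.05. SE and 95% intervals derive from the F statistic. Folds are estimates of the model, which can differ from the ratio of mean CPM, also in direction. Poisson intervals cover counting error only. Exact permutation tests used scipy 1.17.1. The members, lists and alternatives were chosen with earlier results of these data known. The genes named were all members, the 5 genes most correlated with HMOX1 and 3 with each other called member (at least 1 CPM in a group), and up to 4 listed genes per comparison. BACH1, NFE2L2, MAFF and some cell type markers were named besides these.

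Alternatives were 2 other filters, RLE or no scaling, DESeq2 1.42.0, a fit of each pair of groups alone, estimation without the robust option, the replicate block, the library axis (10972 genes), HPPE replicates 2 and 3 summed (the most alike pair, chi-square per degree of freedom 1.11, above sampling noise), and each library left out. The code was tested on simulated counts with 200 genes changed in HPPE. For HPPE against DMSO it called 35.5% of 1.5-fold and 74% of 2-fold changes, and 5.33% and 5.13% of the calls were false. Changes of these sizes can thus be missed, so the lack of a call does not show that a gene is unchanged.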

Additional observations from a re-analysis of the deposited data

How the results depend on the processing

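HMOX1 kept its direction and its side of the threshold in all 6 comparisons under all 22 alternatives. No pairing by replicate number was seen: same-numbered libraries correlated at -0.683 to 0.517 in their deviations, and 1 of 12 correlated best with its own number. These values cannot exclude a small effect shared by same-numbered libraries. With the replicate block, calls over all genes fell from 662 to 412 with HPPE, 369 to 133 with zinc and 373 to 209 with tin protoporphyrin, SLC48A1 lost its HPPE call (edgeR adjusted p 0.0623), and 0 other heme handling genes were called with HPPE in place of 2. Depth limits BLVRB and ABCB6 most, with 4 to 52 and 7 to 102 counts per library.

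With the library axis as a term, 3 members were called with zinc protoporphyrin against DMSO, 5 with HPPE against tin and 3 with zinc against tin protoporphyrin, in place of 1, 2 and 1, and these numbers are uncertain, since the axis comes from the counts tested. It called 7 other heme handling genes with zinc and 1 with tin protoporphyrin against DMSO, 9 with HPPE against zinc, 7 with HPPE against tin and 3 with zinc against tin protoporphyrin. The shares of all genes called in these 5 comparisons were 25.4%, 13.5%, 34.8%, 15.8% and 14.4%. The HPPE list count against DMSO was 1 with unscaled totals or DESeq2 and 0 with the compared groups only or HPPE replicates 2 and 3 summed. Of all genes, these 4 fits called 4.14%, 3.58%, 5.17% and 2.27%. The summed replicates also gave 1 for HPPE against zinc (2.71% of all genes), and no filter gave 1 for HPPE against tin protoporphyrin (1.09%). With 1 library left out, members called ran from 1 to 3 (HPPE against DMSO), 2 to 4 (HPPE against zinc), 1 to 2 (HPPE against tin), 1 to 3 (zinc against tin) and 2 to 4 (any group), while the share of all genes called ran from 1.67 to 6.54%, 1.03 to 20.8%, 0.537 to 2.02%, 0.00588 to 8.59% and 2.51 to 19.8%. The list count ran from 0 to 2, 1 to 6 and 0 to 1 in the first 3 of these comparisons. The causes were not tested.

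The HMOX1 share was 27.2% (DMSO), 96.2% (HPPE), 74.3% (zinc) and 32.5% (tin) with the union of exons as length, and without division by length it was 94.2% with HPPE and 23.4% with tin protoporphyrin. The BLVRA share was 88.0% (HPPE), 90.6% (zinc) and 91.2% (tin) with the union of exons, and 88.8%, 91.3% and 91.8% without division.

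The log2 fold changes that turned sign were uncalled throughout. FLVCR1 with HPPE was -0.0015 without a filter, -0.0086 with RLE, -0.0091 with DESeq2 and -0.0075 with the compared groups only, and against tin protoporphyrin 0.0104 with HPPE replicates 2 and 3 summed. BLVRA in zinc against tin protoporphyrin was 0.0098 with RLE, 0.0047 with DESeq2 and 0.0425 with the axis. PGRMC1 with tin protoporphyrin was 0.0214 with unscaled totals. BLVRB with tin protoporphyrin was -0.0716 with DESeq2, -0.0369 with the replicate block and -0.1501 with the axis, and with zinc -0.0089 with the block. HMOX2 with tin protoporphyrin was -0.014 with the axis. Over all 22 alternatives, the ranges against DMSO were -0.36 to 0.29 (ABCB6), -0.17 to 0.36 (BLVRB), -0.131 to 0.0103 (FLVCR1) and -0.14 to 0.0344 (HMOX2) with zinc. With tin they were -0.44 to 0.20 (ABCB6), -0.28 to 0.25 (BLVRB), -0.0467 to 0.1001 (FLVCR1), -0.0655 to 0.0448 (HMOX2), -0.1013 to 0.0913 (PGRMC1) and -0.0251 to 0.1147 (SLC48A1). With HPPE FLVCR1 ran from -0.0585 to 0.0921, and against tin protoporphyrin from -0.0697 to 0.04. In zinc against tin they were -0.0778 to 0.298 (ABCB6), -0.0979 to 0.0514 (BLVRA), -0.0854 to 0.262 (BLVRB) and -0.1342 to 0.0263 (HMOX2).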
